A study of Mus musculus with 24 samples.

Results

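The miR-690 to miR-721 block was taken as every microRNA (miRNA) on the array numbered from miR-690 up to miR-721, with any letter or arm. It holds 35 of the 1881 mouse miRNAs on the array, and 19 of the 35 were detected on at least 1 of 24 arrays. The RNA came from the livers of 3 male mice, mouse 7, mouse 9 and mouse 10. The study's methods give a C57BL6 strain with an Il1a knock-out for the mice of its time course, and the strain and age of these 3 are not given in the sources used here. Each of the 8 groups holds 1 array from each of the 3 mice (n = 3 throughout). Total RNA with small RNAs was isolated from tissue put into RNAlater, an RNA stabilising solution, at once (0 h) or after 96 h at room temperature, each with and without DNase. From 0 h tissue, RNA depleted of small RNAs was also prepared with DNase, and was hybridised untreated, or after incubation with 0 U, 0.026 U or 0.67 U RNase and a second isolation. The comparisons address how loss of RNA integrity bears on what a miRNA array measures. For mouse 9 the labels of the 0.026 U and 0.67 U arrays contradict each other, and the descriptions were followed here. All groups come from the same 3 animals, so storage of tissue and digestion in a tube were measured in the same livers.

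A mature miRNA is cut from a hairpin precursor and guides an Argonaute protein to messenger RNAs, mostly through the seed, bases 2 to 8 from its 5′ end. Names were given in order of discovery, so neighbouring numbers share a time of naming and not a sequence family. The best known conserved member is miR-708, encoded in the teneurin gene Tenm4. Of the 28 hairpin genes behind the 35 names, 24 were in the RefSeq gene table of GRCm38.p6, and 22 of those lie within the span of another gene, among them Plod3 (miR-702), Rab11fip5 (miR-705), Wnk1 (miR-706), Rfx1 (miR-709), Col7a1 (miR-711) and Cux1 (miR-721). The hairpin of miR-702 is known as a mirtron, a short intron that is spliced rather than cut by Drosha. The miR-712 hairpin is known from the spacer of the ribosomal RNA precursor.

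Mature sequences of 29 of the 35 members were found in RefSeq (GRCm38.p6), and they show that the block is not a family. No seed was shared between any pair of these members. RefSeq gave no mature sequence for miR-694, miR-696, miR-709, miR-712-5p, miR-712-3p and miR-714. The following are the members with a sequence that carry storage and RNase results below, with the seed in capitals.
miR-690: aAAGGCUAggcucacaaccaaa
miR-697: aACAUCCUgguccuguggaga
miR-700-3p: cACGCGGGaaccgaguccacc
miR-700-5p: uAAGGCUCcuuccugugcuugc
miR-702-3p: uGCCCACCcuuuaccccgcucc
miR-705: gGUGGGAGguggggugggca
miR-706: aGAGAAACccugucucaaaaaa
miR-708-5p: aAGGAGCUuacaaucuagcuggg
miR-710: cCAAGUCUuggggagaguugag
miR-711: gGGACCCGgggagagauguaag
miR-718: cUUCCGCCcggccgggugucg
miR-721: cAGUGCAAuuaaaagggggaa
Their base composition spans a wide range, from 36.4% G and C in miR-706 to 81% in miR-718. The 11 members with a sequence that were detected on at least 5 arrays had a median of 54.5% G and C, and the 15 never detected had 47.6%. The same 2 medians over all miRNAs on the array with a sequence were 58.3% and 50%. The opposite arms of 2 detected members were never detected, and are shown for comparison.
miR-702-5p: gUGAGUGGggugguuggcaug
miR-708-3p: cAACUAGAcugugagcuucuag

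Seeds shared with miRNAs outside the block were found for 5 members. The seed of miR-721, AGUGCAA, is that of miR-130a-3p, and the seed of miR-708-5p, AGGAGCU, is that of miR-28a-5p. The seed of miR-705, GUGGGAG, is that of miR-7008-5p. These are the kept pairs with a shared seed, shown because a block member and a miRNA outside it could be followed on the same arrays.
miR-28a-5p: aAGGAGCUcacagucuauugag
miR-130a-3p: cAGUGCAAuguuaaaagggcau
miR-7008-5p: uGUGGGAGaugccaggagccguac
The letters of miR-706 also stand in many other places. Its first 16 bases, read as DNA on either strand, occurred in 23 of 27025 promoter windows of 300 bases, or 0.0851%. That placed it at rank 4 of 1608 miRNAs searched the same way, whose median was 0 windows, and 27 of the other 28 members searched had none. This is a description of the letters and not of a transcript.

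RNA integrity numbers (RIN, higher for more intact RNA) were 8.8 to 9.0 at 0 h and 2.3 to 2.5 at 96 h in RNA with small RNAs, 9.0 to 9.4 in depleted RNA without RNase, 6.0 to 7.0 at 0.026 U and 2.4 to 2.9 at 0.67 U. The arrays with degraded RNA were brighter. The signal summed over detected miRNAs was 55237 to 163493 intensity units at 0 h and 187378 to 362324 at 96 h. Per array, 186 to 707 miRNAs were detected. The 5 hepatocyte miRNAs checked, among them miR-122-5p, were detected on every array of RNA with small RNAs, with a summed signal of 7883 to 15723 at 0 h and 3641 to 7127 at 96 h. The summed signal of the leukocyte list was 41.4 to 184 at 0 h and 10.4 to 34.2 at 96 h, that of the endothelial list was 289 to 604 and 55.7 to 131. Of the 2 muscle markers, neither was detected at 0 h and 1 was on all 96 h arrays, with a sum of 9.65 to 14.2. The neuronal markers were detected on no array. The part of these shifts in the results below was not tested. As liver pieces were measured in bulk, fewer cells of a type and less RNA per cell cannot be told apart.

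The block gave few signals in intact RNA and many in degraded RNA. The plot of signals by array shows 5 or 6 members at 0 h and many more at 96 h and after RNase. Of the 35 members, 6 were detected on any 0 h array of RNA with small RNAs, 19 on any 96 h array, 7 on any depleted array without RNase and 13 on any RNase array. Every member detected on any array was seen at 96 h, so the 13 seen after RNase had to be among them. Over the whole array, 879 of the 1881 miRNAs were detected on at least 1 array.

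**Figure D1:**
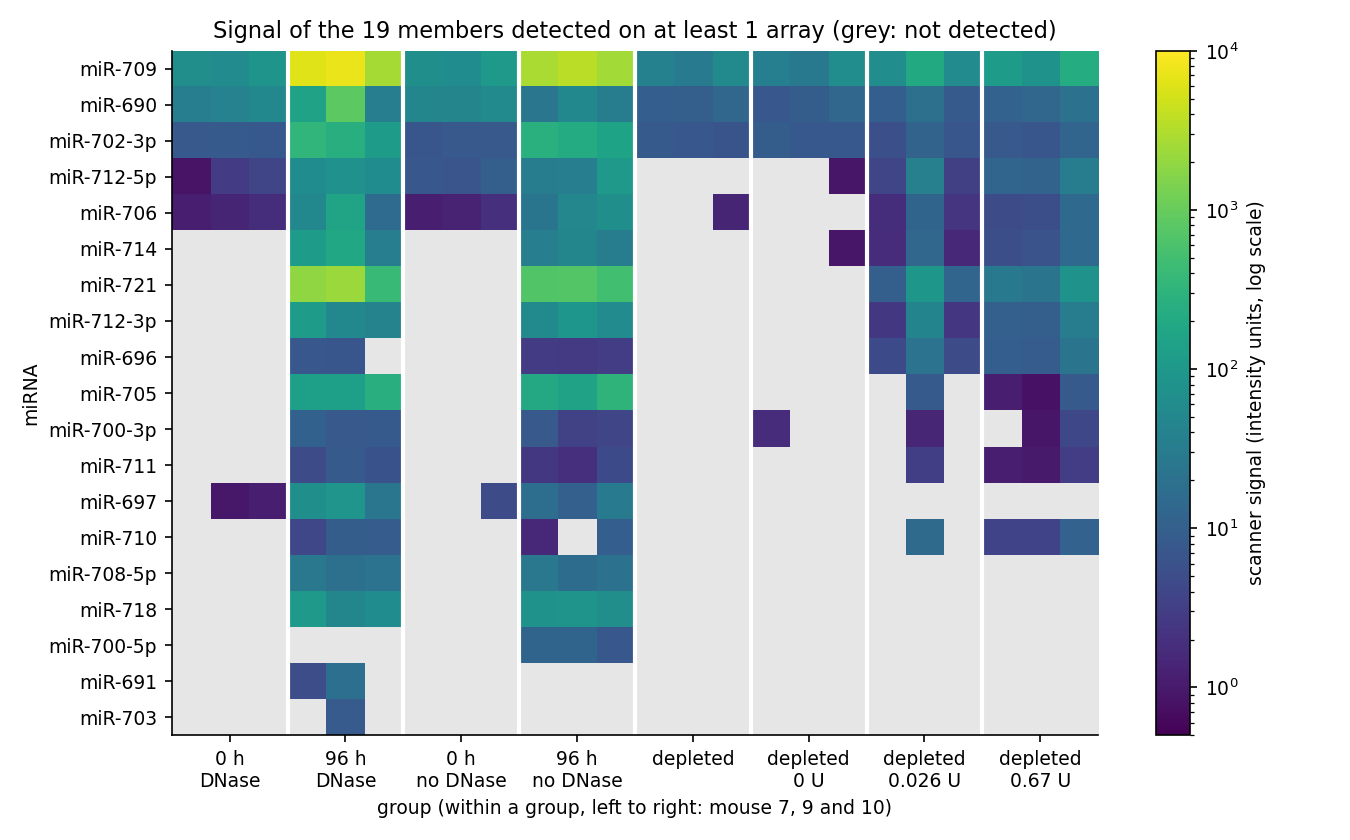
Signal in intensity units (colour, log scale) of the 19 members detected on at least 1 array (rows) on the 24 arrays (columns, 3 mice in each of 8 groups); grey means not detected. miR-709, miR-690 and miR-702-3p were seen on all 24 arrays, and miR-708-5p and miR-718 on the 6 arrays of 96 h alone.

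The number of members detected per array was 5.67 ± 0.577 (SD, n = 3) at 0 h with DNase and 16.7 ± 1.53 (SD, n = 3) at 96 h with DNase. Without DNase it was 5.33 ± 0.577 (SD, n = 3) and 16.7 ± 0.577 (SD, n = 3). Storage added 11.2 members on average, and the highest 0 h array, with 6 members, lay below the lowest 96 h array, with 15 (p = 0.00926 from a two-sided exact permutation of the arrays of each mouse, the smallest it can give). Depleted RNA gave 3 to 4 members untreated and 3 to 5 at 0 U. At 0.026 U the arrays of mouse 7, 9 and 10 gave 9, 13 and 9 members, and at 0.67 U 12, 13 and 13. Against 0 U the 2 doses together gave 7.5 more members (p = 0.037 by the same exact two-sided test, again the smallest it can give). As a share of the 35, the members detected at 0 h with DNase were 16.2% ± 1.62 (SD, n = 3), close to the 15.9% ± 0.624 (SD, n = 3) of all 1881 miRNAs. At 96 h with DNase the shares were 47.6% ± 4.33 (SD, n = 3) and 34.2% ± 3.35 (SD, n = 3), and at 0.67 U they were 36.2% ± 1.62 (SD, n = 3) and 19% ± 2.27 (SD, n = 3). The members held 0.0931% to 0.201% of the detected signal at 0 h, 1.52% to 3.79% at 96 h, 0.511% to 0.861% in depleted RNA without RNase and 0.246% to 0.289% after RNase.

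**Figure D2:**
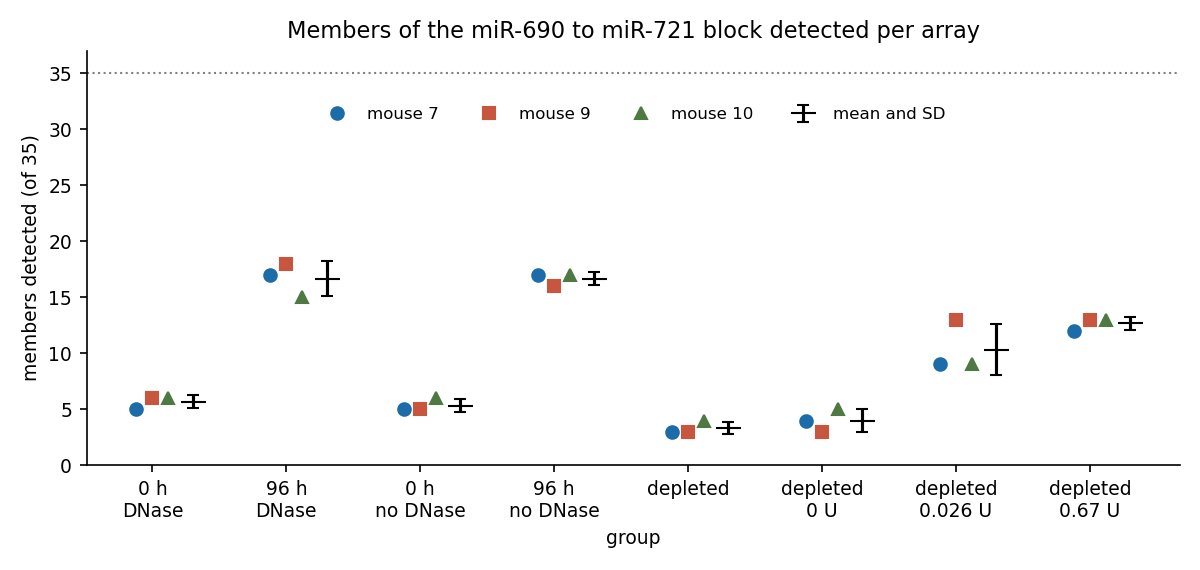
Number of the 35 members (dotted line) detected on each array, by group; symbols are the 3 mice and black bars the mean and SD (n = 3). The 6 arrays of 96 h, at 15 to 18 members, and the 6 RNase arrays, at 9 to 13, all lie above the 12 others, at 3 to 6.

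Changes are given on the glog2 scale of variance stabilizing normalization, on which 1 is a doubling for signals well above background. Signals near or below 0 are spread widely on this scale, so the size of a change does not order members by fold. A miRNA was called at a limma adjusted p under 0.05 and a change of at least 1. With all 35 members in the fit and no filter, 19 were higher and 4 lower at 96 h with DNase, where 34.9% of all 1881 miRNAs were called higher and 29.7% lower. Of those 23 calls, 7 concerned members detected on no array and say nothing of a transcript. With RNase 13 of the 35 were higher, where 18.3% of all miRNAs were.

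The values below are for the 16 members detected on at least 5 of the 24 arrays. This filter lets a member pass through the group in which it is bright, so counts over the 16 describe them and are not support for a trend. At 96 h with DNase, 14 of the 16 were higher and 0 lower, where 60.4% of the 631 miRNAs kept were called higher and 21.6% lower. Without DNase 12 were higher and 1 lower, where 60.5% and 23% of all were called. Among these 12, miR-696, miR-710 and miR-711 at 96 h did not exceed, on average after normalization, the dimmest signals detected at 0 h. The median change over the 16 was 4.71 with DNase and 4.40 without, against 2.47 and 2.16 over all 631. With RNase 13 of the 16 were called higher and 0 lower, where 44.7% of all kept miRNAs were called higher and 0% lower. The median change was 2.50, against 0.69 over all. Of these 13 calls, 10 were of members detected on at least 1 RNase or 0 U array. The other 3, miR-697, miR-708-5p and miR-718, were below background on all of those arrays, so their calls do not show a signal raised by RNase. All 13 were among the 14 called higher with storage and DNase. With 14 of 16 members called there, the overlap had little room to be smaller, and it describes the members alone. The same overlap over all kept miRNAs was not counted.

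The lists of other numbers differ. Of 141 kept miRNAs numbered below 300, with let-7, 27 were higher and 97 lower at 96 h with DNase (median -2.71). Of 24 from miR-1892 to miR-1971, 19 were higher and 1 lower (median 4.61), and of 36 from miR-3057 to miR-3113, 29 were higher and 3 lower (median 4.20). With RNase the numbers higher were 21 of 141, 15 of 24 and 21 of 36. The block thus lay near the later named lists in its counts and away from the oldest names, which is a description with no test.

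How far signals rise depends on how arrays are scaled to each other. The median change of all kept miRNAs at 96 h with DNase was 2.47 in the normalization used, and 0.39, 0.80, 0.68, 3.05 and 0.77 with 5 other scalings. The share of calls that were higher was 73.7% in the normalization used and between 51.9% and 80.3% in those 5. For RNase the median was 0.69, and from -0.49 to 0.37 in the others, with a share higher of 100% against 43.8% to 100%. Changes are therefore also given relative to the median of all kept miRNAs. Storage with DNase raised 7 members under all 6 scalings, namely miR-705, miR-708-5p, miR-709, miR-712-3p, miR-714, miR-718 and miR-721. Storage without DNase raised the same 7 and miR-702-3p. RNase raised 6 under all 6 scalings, namely miR-696, miR-710, miR-712-3p, miR-712-5p, miR-714 and miR-721. How many of all kept miRNAs were raised under all 6 was not counted, so these counts cannot be set against the array as a whole.

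**Figure D3:**
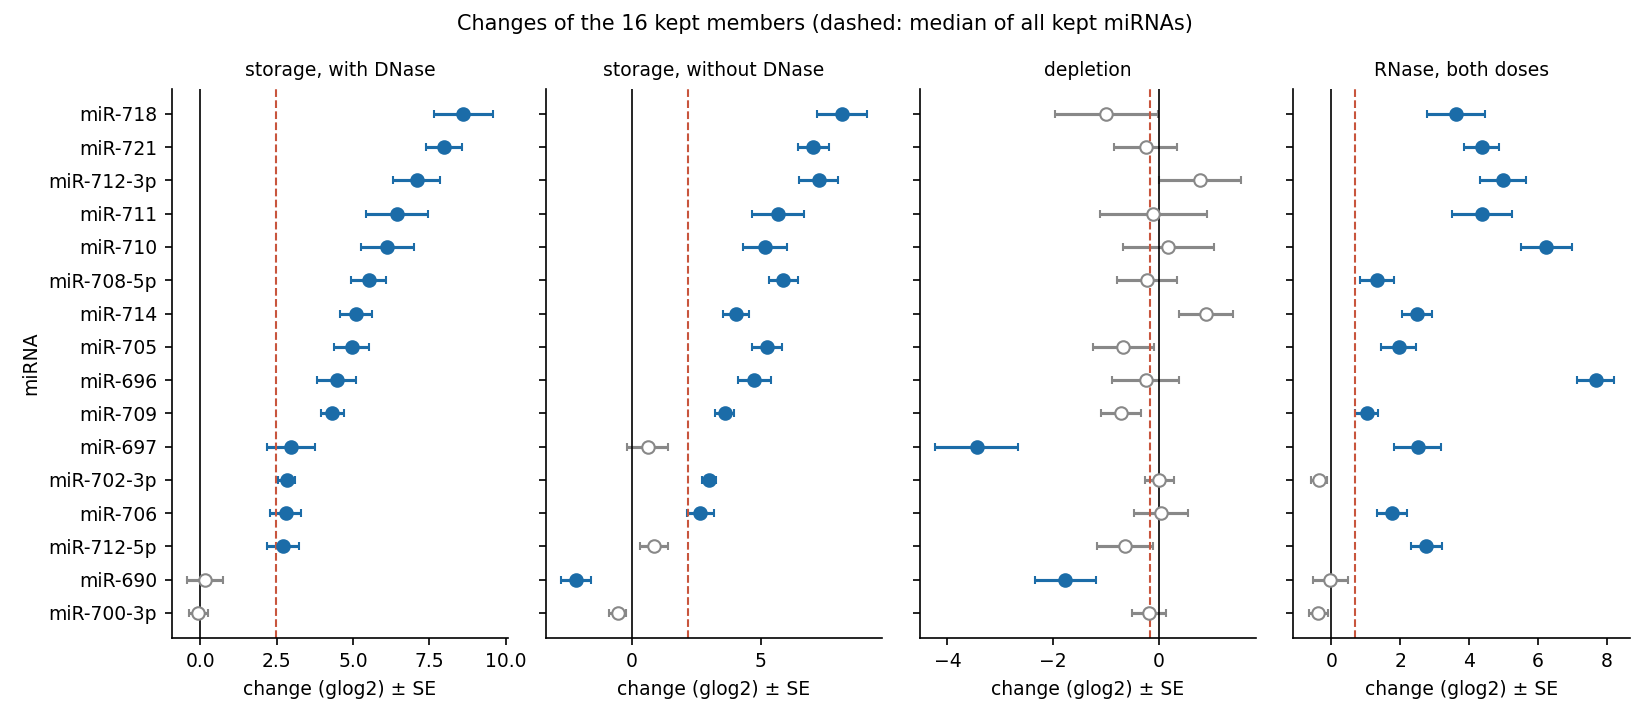
Change on the glog2 scale with its SE for the 16 members kept (rows), in 4 comparisons; filled points are called, open points are not, and the dashed line is the median of all 631 kept miRNAs. Members are sorted by the storage change with DNase, which does not order them by fold; miR-690 and miR-700-3p at the bottom were called higher in no panel.

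miR-709, the brightest member, is known as a miRNA found in the nucleus. Its signals for mouse 7, 9 and 10 (the order of all values that follow, in intensity units) were 66.4, 58.8 and 84.9 at 0 h with DNase and 6172, 7551 and 2596 at 96 h with DNase. Without DNase they were 68.4, 62.2 and 102 at 0 h and 2846, 3650 and 2545 at 96 h. Storage thus separated the groups without overlap, and the changes were 4.32 ± 0.38 (SE, limma adjusted p = 5.11e-09) with DNase, 1.85 above the median, and 3.60 ± 0.38 (SE, limma adjusted p = 4.48e-08) without. In depleted RNA miR-709 gave 39.1, 28.5 and 55.7 untreated, 36.4, 27.5 and 63.6 at 0 U, 64.9, 207 and 58.8 at 0.026 U and 117, 81 and 232 at 0.67 U. The RNase arrays overlapped those at 0 U. The RNase call was a change of 1.02 ± 0.33 (SE, limma adjusted p = 0.0136), 0.33 above the median, and it was lost without mouse 7 or mouse 9, turning to -0.29 under scaling to the 75th percentile of the miRNAs detected on all arrays and to -0.63 under quantile normalization.

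**Figure D4:**
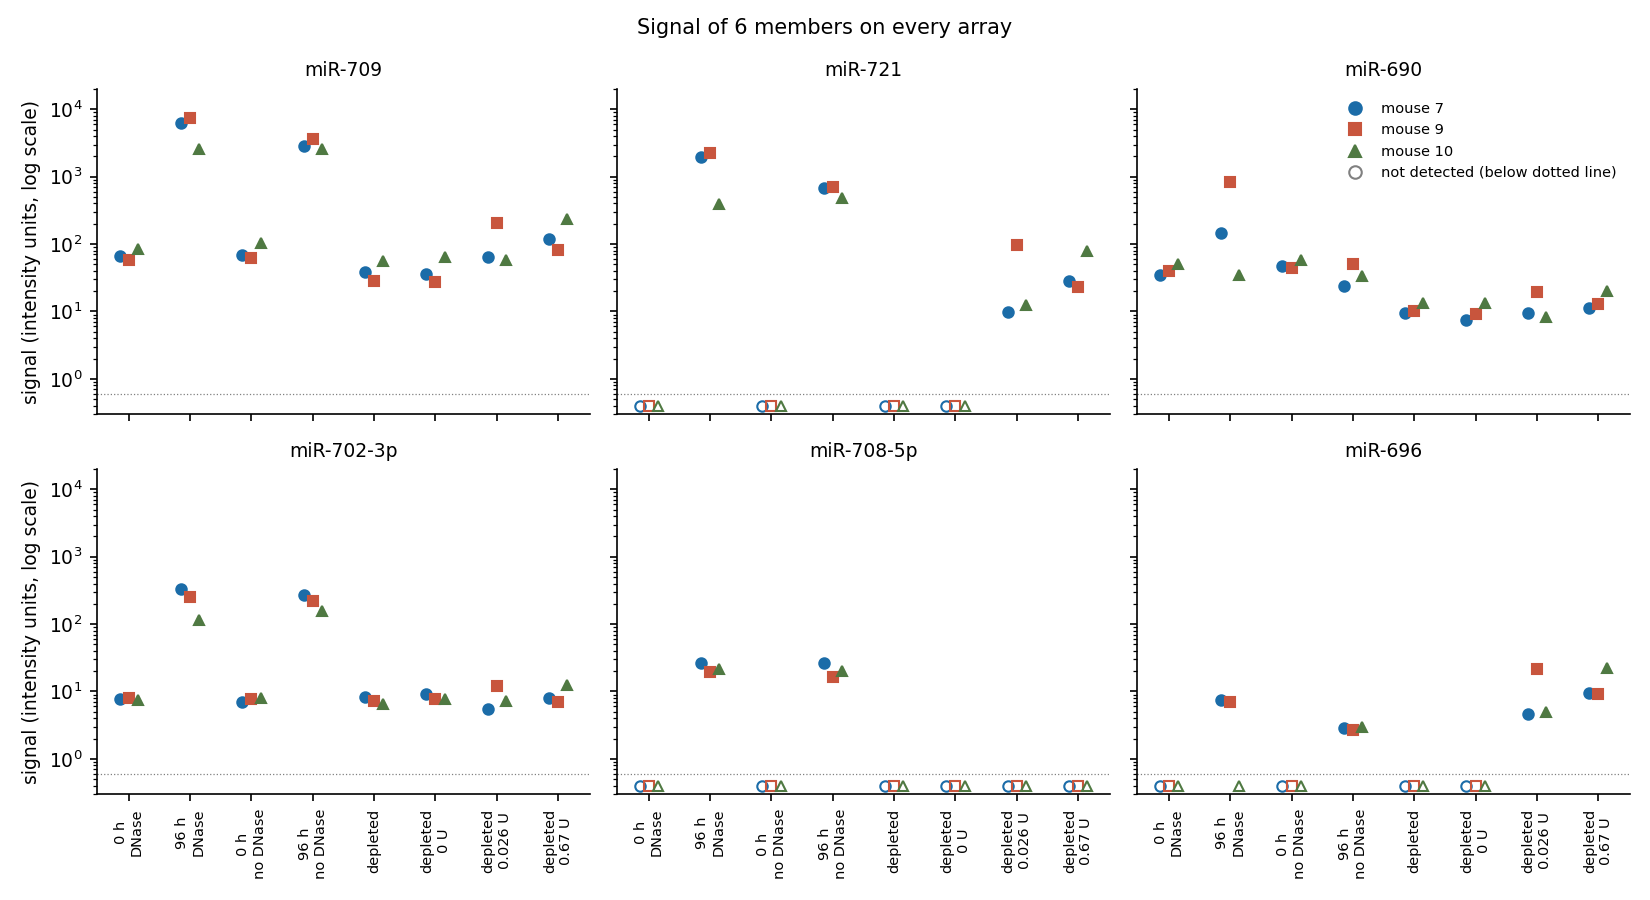
Signal in intensity units (log scale) of 6 members on the 24 arrays by group, with a symbol for each mouse; open symbols below the dotted line are arrays where the member was not detected and their height has no meaning. miR-709, miR-721 and miR-702-3p were bright at 96 h, miR-721 and miR-696 appeared after RNase, miR-708-5p appeared at 96 h alone, and miR-690 varied most among the mice at 96 h with DNase, from 35 to 823.

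miR-702-3p, the arm from the Plod3 mirtron, was the steadiest member outside storage. It gave 7.81, 8.12 and 7.52 at 0 h with DNase, 7.0, 7.81 and 8.03 without, 8.26, 7.22 and 6.58 in depleted RNA and 9.18, 7.72 and 7.74 at 0 U. At 96 h it gave 335, 249 and 115 with DNase and 273, 221 and 158 without, all above every other array. These storage changes were 2.83 ± 0.27 (SE, limma adjusted p = 1.12e-08) and 2.99 ± 0.27 (SE, limma adjusted p = 5.73e-09), 0.36 and 0.83 above the median of all kept miRNAs. With depletion its change was 0.01 ± 0.27 (SE, limma adjusted p = 0.987), and 2 of 6 scalings called it higher, by up to 2.16. With RNase it gave 5.59, 11.9 and 7.16 at 0.026 U and 8.0, 7.1 and 12.6 at 0.67 U, which overlap 0 U. The RNase change of -0.37 ± 0.23 (SE, limma adjusted p = 0.215) was 1.06 below the median, and 4 of the 6 scalings called it lower. It was the single member called higher with storage and DNase that was not called with RNase.

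miR-690, which has been described in macrophage vesicles, behaved apart from the rest. At 0 h it gave 34.8, 39.6 and 51.0 with DNase and 46.8, 44.8 and 57.9 without. At 96 h with DNase it gave 148, 823 and 35, so the mice pointed different ways and the change was 0.15 ± 0.58 (SE, limma adjusted p = 0.81), called higher under 1 of 6 scalings and lower under 3. Without DNase the 96 h arrays gave 24.1, 50.2 and 33.1. These overlap 0 h in intensity units, but the arrays were brighter in all, and after normalization the change was -2.18 ± 0.58 (SE, limma adjusted p = 0.00159), with all 3 mice below 0. That call was lost without mouse 7, and under spike-in scaling, where the change was still below 0. At 96 h the signal was lower without than with DNase, by -2.08 ± 0.58 (SE, limma adjusted p = 0.0221), where 4.6% of all kept miRNAs were called lower. It was the only called member there, and the call was lost without mouse 7 or mouse 9. The difference between the storage changes with and without DNase was -2.33 ± 0.82 (SE, limma adjusted p = 0.173), which did not pass. It passed with the 75th percentile of all miRNAs (-2.50, limma adjusted p = 0.0469) and without mouse 10 (-3.13, limma adjusted p = 0.0482). Depletion lowered miR-690 by -1.77 ± 0.58 (SE, limma adjusted p = 0.0222), from the 0 h values above to 9.58, 10.2 and 13.3, with no overlap. That call was made under 2 of 6 scalings and was lost without mouse 7. The change was 0.33 under scaling to the 75th percentile of the miRNAs detected on all arrays. RNase gave 9.57, 19.5 and 8.38 at 0.026 U and 11.3, 12.9 and 19.8 at 0.67 U against 7.36, 9.18 and 13.3 at 0 U, a change of -0.03 ± 0.50 (SE, limma adjusted p = 0.979).

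miR-721 rose with both treatments while its seed partner miR-130a-3p fell with storage. It was detected on no 0 h array and no depleted array without RNase, and on all 12 arrays of degraded RNA. At 96 h it gave 1966, 2243 and 396 with DNase and 687, 711 and 490 without. In the normalization used this was at least 220-fold above 0 h with DNase and at least 111-fold without. These folds were counted from the dimmest signal detected on each 0 h array, or the miRNA's own signal where that was higher. The changes were 7.98 ± 0.59 (SE, limma adjusted p = 7.2e-10) and 7.05 ± 0.59 (SE, limma adjusted p = 2.49e-09). Under the scalings where they were smallest, they were 5.98 and 5.36. The folds given here and below are thus no lower bound across scalings. With RNase miR-721 gave 9.91, 95.3 and 12.6 at 0.026 U and 27.9, 22.7 and 78.7 at 0.67 U, at least 14.1-fold above 0 U. All 6 scalings placed both rises above the median, the storage rise with DNase by 5.50 to 6.76 and the RNase rise by 3.67 to 4.73.

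miR-130a-3p, an old and conserved miRNA with the same seed, gave 110, 170 and 200 at 0 h with DNase and 58, 104 and 96.1 at 96 h. Its change was -2.70 ± 0.34 (SE, limma adjusted p = 4.29e-07) with storage and -3.66 ± 0.34 (SE, limma adjusted p = 2.68e-08) with depletion, which left miR-721 undetected as before. RNase gave miR-130a-3p a change of 0.09 ± 0.30 (SE, limma adjusted p = 0.897). The other 5 miRNAs on the array with this seed were each detected on 3 arrays or fewer.

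miR-708-5p, a conserved miRNA known from stress of the endoplasmic reticulum and from tumours, was detected on the 6 arrays of 96 h and nowhere else. It gave 26.1, 19.4 and 21.7 with DNase and 26.8, 16.3 and 20.1 without, at least 4.39-fold and 4.24-fold above 0 h. The changes were 5.51 ± 0.57 (SE, limma adjusted p = 2.96e-08) and 5.88 ± 0.57 (SE, limma adjusted p = 1.37e-08). In the RNase series all its signals were below detection, the highest being 0.365. The fit still called a change of 1.33 ± 0.49 (SE, limma adjusted p = 0.0311) there, which rests on values below background, was called under no other scaling and turned to -0.83 with vsn on the kept miRNAs. The partner miR-28a-5p, a conserved miRNA, gave 2.45, 3.48 and 3.72 at 0 h with DNase and was not detected on any 96 h array, a change of -3.30 ± 0.40 (SE, limma adjusted p = 2.86e-07). Depletion lowered miR-28a-5p too, by -1.82 ± 0.40 (SE, limma adjusted p = 0.00113). The other arm, miR-708-3p, was detected on no array.

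**Figure D5:**
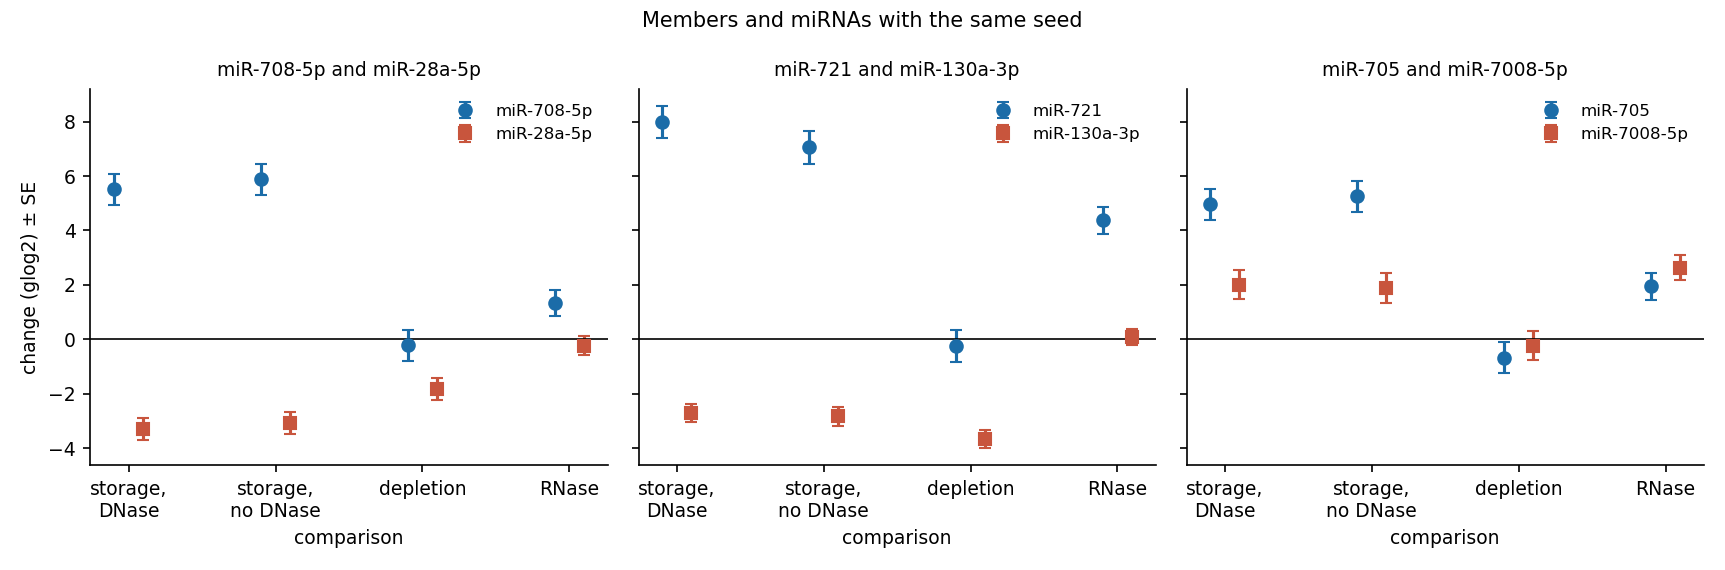
Change on the glog2 scale with its SE in 4 comparisons for 3 block members (circles) and, in each panel, a miRNA outside the block with the same seed (squares). With storage miR-708-5p and miR-721 rose by 5.51 to 7.98 while miR-28a-5p and miR-130a-3p changed by -2.70 to -3.30. The storage changes of miR-705 and miR-7008-5p were all above 0, those of miR-7008-5p below the medians of all kept miRNAs.

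Both arms of miR-712, from the spacer of ribosomal RNA, rose with RNase and with storage and DNase, and the 3p arm was also called with storage without DNase. miR-712-3p was not detected at 0 h and gave 120, 51.3 and 42.3 at 96 h with DNase and 54.2, 91.9 and 60.2 without, at least 12.2-fold and 13.1-fold above 0 h. With RNase it gave 2.53, 43.0 and 2.4 at 0.026 U and 10.6, 10.2 and 32.7 at 0.67 U, at least 5.53-fold above 0 U. The changes were 7.09 ± 0.77 (SE, limma adjusted p = 5.96e-08) with storage and DNase and 4.98 ± 0.67 (SE, limma adjusted p = 3.36e-06) with RNase. miR-712-5p was already detected at 0 h, at 0.85, 2.85 and 4.02 with DNase and 7.29, 6.91 and 10.2 without, and these groups do not overlap. The change from leaving out DNase at 0 h was 1.58 ± 0.53 (SE), and it did not pass (limma adjusted p = 0.478). At 96 h it gave 61.7, 75.4 and 62.8 with DNase and 32.7, 35 and 107 without. Storage raised it by 2.72 ± 0.53 (SE, limma adjusted p = 7.77e-05) with DNase, 0.24 above the median of all kept miRNAs. The change without, 0.86 ± 0.53 (SE, limma adjusted p = 0.132), did not pass. It was above 0 in all 3 mice, but 1.30 below the median, and below the median under all 6 scalings. The difference between these changes was -1.86 ± 0.75 (SE, limma adjusted p = 0.248), which did not pass either, and passed with the 75th percentile of all miRNAs (-2.32, limma adjusted p = 0.0452). In depleted RNA miR-712-5p was detected on 1 of 6 arrays without RNase, and it then gave 3.97, 37.7 and 3.29 at 0.026 U and 12.5, 11.9 and 32.4 at 0.67 U, a change of 2.76 ± 0.46 (SE, limma adjusted p = 3.93e-05).

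miR-714 followed the same course as miR-712-3p. It was not detected at 0 h and gave 116, 186 and 35.2 at 96 h with DNase and 34.3, 46.5 and 33.7 without, at least 17.3-fold and 7.52-fold higher. With RNase it gave 1.74, 13.1 and 1.51 at 0.026 U and 5.36, 6.23 and 14.9 at 0.67 U, against 1 detected array of 3 at 0 U, with 0.92. The RNase change was 2.48 ± 0.44 (SE, limma adjusted p = 8.02e-05), 1.79 above the median.

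miR-705 and miR-706 differ in base composition, with 70% and 13.6% G, and both rose with storage. miR-705 was not detected at 0 h and gave 132, 135 and 258 at 96 h with DNase and 194, 153 and 318 without, at least 28.8-fold and 35-fold higher. Mouse 10 was the brightest in both, unlike for miR-709 and miR-721. With RNase it was detected on 4 of 6 arrays, at 8.33 for mouse 9 at 0.026 U and at 1.13, 0.802 and 8.35 at 0.67 U, a change of 1.95 ± 0.50 (SE, limma adjusted p = 0.00262) that was called under 3 of 6 scalings and was lost without mouse 7. Its seed partner miR-7008-5p changed by 2.01 ± 0.54 (SE, limma adjusted p = 0.00181) with storage and DNase, 1.88 ± 0.54 (SE, limma adjusted p = 0.00316) without and 2.64 ± 0.47 (SE, limma adjusted p = 8.27e-05) with RNase. These storage changes were below the medians of all kept miRNAs, 2.47 and 2.16, where miR-705 was 2.48 and 3.09 above them. The RNase change was above its median, 0.69. miR-706 gave 1.17, 1.4 and 1.85 at 0 h with DNase, 50.3, 163 and 15.7 at 96 h with DNase and 23.4, 49.2 and 69.7 at 96 h without. Its storage changes were 2.80 ± 0.51 (SE, limma adjusted p = 3.43e-05) and 2.66 ± 0.51 (SE, limma adjusted p = 6.35e-05), which is 0.33 and 0.50 above the median. With RNase miR-706 gave 1.8, 12.2 and 2.33 at 0.026 U and 4.86, 5.5 and 14.5 at 0.67 U, and it was detected on no 0 U array, at least 3.08-fold lower.

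miR-696, known as a regulator of PGC-1α in muscle, had a larger glog2 change with RNase than with storage in either DNase state. That difference was not tested. For miR-710 the changes with RNase and with storage and DNase were close in the normalization used, 6.24 ± 0.74 and 6.13 ± 0.86 (SE). They were 5.55 and 3.66 above their medians of all kept miRNAs, and 6 and 3 of 6 scalings called them higher. Those of miR-712-5p, 2.76 ± 0.46 and 2.72 ± 0.53 (SE), were 2.07 and 0.24 above the medians. These differences were not tested either. miR-696 was not detected at 0 h or in depleted RNA without RNase, and gave 4.61, 21.4 and 4.9 at 0.026 U and 9.6, 9.06 and 22.4 at 0.67 U, at least 5.38-fold above 0 U. That change was 7.67 ± 0.55 (SE, limma adjusted p = 1.32e-09). At 96 h miR-696 gave 7.42 and 7.01 for mouse 7 and 9 with DNase, no detection in mouse 10, and 2.84, 2.7 and 2.97 without DNase. Its mean signals there, 5.34 and 2.83, were lower than 10.3 at 0.026 U and 13.7 at 0.67 U. The values with DNase overlapped those at 0.026 U. The storage change with DNase of 4.47 ± 0.64 (SE, limma adjusted p = 1.83e-06) corresponds to at least 1.13-fold only, and was 0.03 under the scaling where it was smallest. miR-710 and miR-711 were dim in the same way. With DNase at 96 h miR-710 gave 4.11, 9.15 and 8.95 and miR-711 gave 5.02, 8.27 and 5.98, at least 1.58-fold and 1.44-fold above 0 h. With RNase each was detected on 4 of 6 arrays, on mouse 9 at 0.026 U and on all mice at 0.67 U, and miR-711 was called there under 2 of 6 scalings. With storage without DNase, miR-696, miR-710 and miR-711 changed by 4.75, 5.18 and 5.67, with no fold that could be bounded. They were called there under 3, 2 and 3 of 6 scalings, with smallest changes of 0.00, 0.06 and 0.00.

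miR-718, with 81% G and C, and miR-697 were detected after storage and not after RNase. Unlike miR-718, miR-697 was already detected at 0 h, on 2 of 3 arrays with DNase and 1 of 3 without. Its mean signals there were 1.33 and 3.35. miR-718 gave 101, 47.1 and 61.4 at 96 h with DNase and 78.5, 83.0 and 65.8 without, at least 12.6-fold and 14.8-fold above 0 h, and was not detected on any RNase array. miR-697 gave 70.5, 87.9 and 24.2 at 96 h with DNase and 17.8, 10.5 and 31.3 without, and was not detected on any RNase array either. The fit called RNase changes of 3.63 ± 0.84 (SE, limma adjusted p = 0.00112) and 2.51 ± 0.68 (SE, limma adjusted p = 0.0041) for them, both between values below background. These calls held under 2 and 1 of the 6 scalings, and that of miR-718 was lost without mouse 9. Storage raised miR-697 by 2.97 ± 0.79 (SE, limma adjusted p = 0.0016) with DNase, while without DNase the change was 0.61 ± 0.79 (SE, limma adjusted p = 0.467). The difference of these changes, -2.36 ± 1.11 (SE), did not pass (limma adjusted p = 0.355), and passed under 4 of the 5 other scalings, with -2.13 to -2.86. Depletion lowered miR-697 by -3.45 ± 0.79 (SE, limma adjusted p = 0.00147), from 1.92 (below detection), 0.941 and 1.14 to no detection, a bound of 1.01-fold, called under 3 of 6 scalings.

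The 2 arms of miR-700 took separate courses at 96 h. miR-700-3p was not detected at 0 h and gave 10.7, 8.03 and 8.3 at 96 h with DNase and 7.83, 3.47 and 3.93 without. After normalization this was no rise: the changes were -0.06 ± 0.32 (SE, limma adjusted p = 0.866) and -0.56 ± 0.32 (SE, limma adjusted p = 0.112), and 3 of 6 scalings called it lower with storage and DNase while 1 called it higher. miR-700-5p was detected on 3 arrays, the 96 h arrays without DNase, at 12.4, 12.3 and 7.43, against 1.42, 2.51 and 0.679 with DNase, all below detection. It did not pass the filter. In the fit without a filter its change from leaving out DNase at 96 h was 2.15 ± 0.38 (SE, limma adjusted p = 0.00093). All 3 mice were above 0 and the fold was at least 3.98. miR-691 was detected on 2 arrays and miR-703 on 1, all at 96 h with DNase, the highest signals being 18.6 and 8.7, both in mouse 9.

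The other comparisons moved few members. Leaving out DNase at 0 h called none of the 16, where 0% of all kept miRNAs were called, and 1 member had an unadjusted p under 0.05. The incubation at 0 U called none of them, where 1.74% of all were called, and none had an unadjusted p under 0.05. Depletion lowered the 2 members named above, miR-690 and miR-697, where 24.4% of all kept miRNAs were called lower, and its median change over the 16 was -0.24. The interaction of storage with DNase called none of the 16 in limma, 3 having an unadjusted p under 0.05, where 1.11% of all were called. RNase at 0.67 U against 0.026 U called none, 1 having an unadjusted p under 0.05, where 0% of all were. The member nearest to a dose call was miR-711, at 3.49 ± 1.01 (SE, limma adjusted p = 0.936). Without mouse 9 its change was 5.56, and with the titles of mouse 9 in place of the descriptions it was 3.92, both past the threshold (limma adjusted p = 0.000388 and 0.0368). On the RNase arrays a brightness shared by most members went with the array: mouse 9 at 0.026 U and mouse 10 at 0.67 U were the 2 brightest arrays for miR-709, miR-721, miR-696, miR-706, miR-712-3p and miR-714, and their summed detected signals were 177642 and 168514, against 36325 to 83451 on the other 4.

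Never detected were miR-692, miR-693-5p, miR-693-3p, miR-694, miR-695, miR-698-5p, miR-698-3p, miR-701-5p, miR-701-3p, miR-702-5p, miR-704, miR-707, miR-708-3p, miR-713, miR-717 and miR-719, 16 of the 35. Among the pairs of arms on the array, miR-702 and miR-708 gave a signal from 1 arm, miR-712 and miR-700 from both, and miR-693, miR-698 and miR-701 from none.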

How the data were processed

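Total RNA, or RNA depleted of small RNAs, from the livers of 3 mice was labelled and hybridised to 24 one-colour Agilent mouse miRNA arrays, 8 per mouse. Each mouse had its own slide, scanned once, so these 3 (animal, slide, scan) cannot be told apart. The deposited scanner files hold intensities per spot and per miRNA, made by the authors with Agilent's Feature Extraction. A deposited table of processed values on a log2 scale, made by the authors with variance stabilizing normalization (vsn), was an alternative. Members and lists were chosen with earlier results of these data known.

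The signal was the total gene signal where the file marked a miRNA as detected, and otherwise the sum of its probe signals. It was normalized by a vsn fit written in Python 3.11.15 with numpy 2.4.6, whose values had a lowest correlation of 0.999829 with the deposited table. The 631 miRNAs detected on at least 5 of 24 arrays were kept, and 1 fit of the 8 group means was made with limma 3.58.1 in R 4.3.3, with Benjamini-Hochberg adjustment over all 631. A call needed an adjusted p under 0.05 and at least 1 glog2 unit of change. Counts of detected members were compared by exact permutation within mice. A fold written as "at least" sets the bright group against the dimmest detected signal on each array of the dim group, or the miRNA's own where higher. It is a bound in the normalization used and not across the other scalings. Members detected on all 3 arrays of at least 1 group were named with values, those with the highest mean on all arrays and called members in most detail, miR-708 always, and members never detected by name alone. miR-691 and miR-703 fall outside this rule and were named after their values were seen. Each number of a mouse was taken from the descriptions as the same animal in every group. The mean correlation of deviations from the group means was 0.0914 within mice and -0.0449 between mice. It cannot tell an animal from its slide. On simulated data with 200 of 631 miRNAs changed, 76% were recovered for storage with DNase and 85% for RNase, with 5 false calls in each. With 3 arrays per group, their number limits the precision. Alternatives were 5 other scalings, normexp background correction (on median signals), the deposited table, no filter, a replicate block, the compared groups alone, an exact rank test, 2 other rules of detection, each mouse left out and the titles for mouse 9.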

Additional observations from a re-analysis of the deposited data

Results flagged for a closer look

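The storage change of miR-700-5p differed between DNase states by 2.43 ± 0.54 glog2 units (SE, limma adjusted p = 0.0281 over 1881 miRNAs), in the fit without a filter, since the miRNA was detected on 3 arrays. The change was 2.48 ± 0.38 (SE) without DNase and 0.05 ± 0.38 (SE) with DNase, and the difference was above 0 in 3 of 3 mice (3.10, 2.31 and 1.87).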

How the results depend on the processing

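Counts of members are given as reported, then under the alternatives. Scaling D sets arrays to the 75th percentile over those miRNAs that every array detected, and scaling A to that over all miRNAs. Storage with DNase raised 14 members, and 11, 11, 11, 16 and 10 with vsn of kept miRNAs, scaling D, scaling A, spike-in scaling and quantile normalization, 19 with no filter, 2 with normexp background correction and 0 with the exact rank test, which cannot pass with 3 arrays per group. It lowered 0, and 2 with vsn of kept miRNAs, 2 with scaling A, 2 with quantile normalization and 4 with no filter. Over all 631 kept miRNAs storage with DNase raised 381, and 261, 296, 284, 465 and 283 under those 5 scalings, in that order. It lowered 136 of them, and 242, 157, 199, 114 and 191. With no filter it raised 656 and lowered 559 of all 1881, and with normexp it raised 71 of the 631. Storage without DNase raised 12, and 11, 9, 9, 13 and 9 under those 5 scalings, 16 with no filter, 3 with normexp and 0 by rank. It lowered 1, and 2, 2, 2 and 4 with vsn of kept miRNAs, quantile normalization, scaling A and no filter, 0 with spike-in scaling and 0 by rank, and 0 to 1 with a mouse left out. Over all 631 storage without DNase raised 382, and 256, 312, 244, 460 and 263 under the 5 scalings. It lowered 145 of them, and 233, 143, 194, 129 and 184. With no filter it raised 617 and lowered 519 of all 1881, and with normexp it raised 69 of the 631. Leaving out DNase at 0 h called 0, and 1 with scaling A, miR-697. Leaving out DNase at 96 h raised 0, and 2 with no filter. It lowered 1, and 2 with scaling D, 2 with scaling A, 3 with spike-in scaling, 0 with normexp, 0 with the compared groups alone, 0 by rank and 0 to 1 with a mouse left out. Of all 631 it lowered 29, and 36, 91, 51, 8 and 1 with scaling D, scaling A, spike-in scaling, normexp and the compared groups alone. It raised 39 of them, and 97 of all 1881 with no filter. The interaction called 0, and 1, 3, 1, 1 and 1 with scaling D, scaling A, spike-in scaling, quantile normalization and no filter, and 0 to 1 with a mouse left out. With no filter it called 15 higher and 2 lower of all 1881. Its counts over all miRNAs under the other alternatives, and those for DNase at 0 h, are not given here.

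Depletion raised 0, and 1 with vsn of kept miRNAs, 5 with scaling D and 2 with quantile normalization. It lowered 2, and 1 with vsn of kept miRNAs, 0 with scaling D, spike-in scaling, quantile normalization, normexp or by rank, and 1 to 2 with a mouse left out. Over all 631 kept miRNAs depletion raised 34, and 64, 252, 25, 20 and 107 under the 5 scalings in the order above. It lowered 154 of them, and 132, 82, 149, 127 and 119, and 42 with normexp. RNase raised 13, and 8 with vsn of kept miRNAs, scaling D or A or spike-in scaling, 7 with quantile normalization, 1 with normexp, 0 by rank and 10 to 12 with a mouse left out. It lowered 0, and 2, 3, 2, 3 and 1 with vsn of kept miRNAs, scaling D, scaling A, quantile normalization and no filter. Over all 631 RNase raised 282, and 167, 157, 173, 200 and 158 under the 5 scalings, and 36 with normexp. It lowered 0 of them, and 214, 184, 78, 0 and 146 under the 5 scalings. With no filter it raised 345 and lowered 32 of all 1881. The dose comparison called 0, and 1 with the titles for mouse 9 and 0 to 1 with a mouse left out. Its counts over all miRNAs under these alternatives are not given here. Direction turned for miR-690 in depletion (0.33, scaling D), for miR-708-5p with RNase (-0.83, vsn of kept miRNAs) and for miR-709 with RNase (-0.29, -0.63 and -0.50 with scaling D, quantile normalization and normexp). The cause was not tested.

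The rise in members detected was 10.8 to 11.8 with storage and 6.25 to 8.25 with RNase with a mouse left out, where permutation cannot pass. With a fixed level for detection the differences from leaving out DNase at 0 h and from the 0 U incubation were 0.333 and -1.67. With the mouse as a replicate block, 14 members were higher and 0 lower at 96 h with DNase, 12 and 1 without, 0 and 2 with depletion and 13 and 0 with RNase. Over all 631 the same counts were 383 and 135, 383 and 146, 36 and 162, and 281 and 0. The block changed no call of a named member. The deposited table changed none either.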
